A study of Hydractinia symbiolongicarpus with 45 samples.

Results

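The 4 gene models described here are HyS0018.150, HyS0044.85, HyS0073.69 and HyS0020.263, maternal mRNAs of the cnidarian Hydractinia symbiolongicarpus that the study treats as predicted targets of microRNAs (miRNAs). They are 4 of the 22022 gene models in the deposited table, and they were taken by their identifiers. HyS0020.263 is predicted by the study to encode a metabotropic glutamate receptor, a class of G protein-coupled receptors that respond to glutamate, and to carry neighbouring sites for miR-B-5p and miR-B-3p in its 3' UTR. The files give neither a gene name nor a position for any of the 4 beyond the scaffold in its identifier (HyS0018 and so on). The coding lengths that come with the counts are 1254 bases for HyS0018.150, 3894 for HyS0044.85, 6726 for HyS0073.69 and 2715 for HyS0020.263.

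An egg is loaded with maternal mRNA, which is removed as the embryo begins to transcribe its own genome, a handover known as the maternal-to-zygotic transition. Removal can start with shortening of the poly(A) tail (deadenylation), which leaves the RNA in place but makes it hard to capture by its tail, and can end with degradation of the RNA itself. miRNAs are short RNAs that guide Argonaute proteins to complementary mRNAs. In cnidarians they are known to pair with targets along nearly their full length and to cut them, whereas in vertebrate embryos short matches lead to deadenylation. miRNAs themselves were not measured in these libraries, and the primary transcripts that would carry them were not counted in the table analysed here.

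All samples were unfertilized eggs, whole embryos or whole larvae labelled wild type, and each library was made from many individuals pooled. Each stage up to 7 hpf (hours post fertilization) was measured by poly(A)+ selection, which captures RNA by its tail, and by rRNA depletion, which leaves RNA with or without a tail. In each of the preparations 3 egg libraries were compared with 2 libraries per stage at 2, 3 and 4 hpf, and with 1 per stage at 30 mpf (minutes post fertilization), 1, 5 and 6 hpf. At 7 hpf untreated embryos had 1 rRNA-depleted and 2 poly(A)+ libraries, with 2 poly(A)+ libraries each of larvae at 24, 48 and 72 hpf. Embryos kept in seawater with 20 µM Triptolide, an inhibitor of RNA polymerase II, and 0.5% DMSO, or with 0.5% DMSO alone, were collected at 7 hpf and gave 2 libraries of each type per treatment. The letters A to G in the labels are not explained there and are read here as collection groups. They are called clutches as a short name only, since the labels do not say that they are. Because whole animals were ground up, a lower level in fewer cells and a lower level per cell cannot be told apart.

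Library totals were between 3107656 and 32015950 counts in the 25 poly(A)+ libraries and ranged from 3503029 to 20464345 in 18 rRNA-depleted libraries, and those of clutch B at 5, 6 and 7 hpf were among the shallowest. All 4 genes passed the minimum of 10 reads summed over libraries in both types. Their lowest count in any library was 48 reads for HyS0018.150, 182 for HyS0044.85, 49 for HyS0073.69 and 29 for HyS0020.263, and the highest were 927, 4710, 5470 and 2308. The counts of HyS0044.85, HyS0073.69 and HyS0020.263 were whole numbers in 43 of 43 libraries, to within 0.01. Those of HyS0018.150 were fractions in 43 of 43, so some of its reads were shared out with another gene model and its levels are less certain than those of the other 3. Levels are given as RPKM, reads scaled to coding length and library total, with library totals scaled by TMM (edgeR's trimmed mean of M values) within each library type. Calls of higher or lower levels rest on a Benjamini-Hochberg adjusted p under 0.05 in edgeR's two-sided quasi-likelihood F test over all genes of the fit. Stages with 1 library were tested as if they varied like stages with replicates. Nothing states that the letters are separate spawnings, so p-values measure the spread between these collections.

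In the egg the 4 mRNAs were moderately abundant, and they differed in how much of their rRNA-depleted level was seen in poly(A)+ libraries. HyS0044.85 was the highest, at 55.8, 51.2 and 53.0 RPKM in the rRNA-depleted egg libraries of clutches A, C and D and at 37.5, 45.8 and 41.1 RPKM in the poly(A)+ ones. HyS0073.69 was at 35.6, 35.2 and 37.3 RPKM in rRNA-depleted and 26.5, 32.4 and 24.3 RPKM in poly(A)+ libraries. HyS0020.263 stood apart, at 44.2, 35.3 and 38.1 RPKM in rRNA-depleted and only 12.6, 13.5 and 9.96 RPKM in poly(A)+ libraries. HyS0018.150 was at 34.6, 21.7 and 22.7 RPKM in rRNA-depleted and 14.9 ± 1.09 RPKM (SD, n = 3) in poly(A)+ libraries, with clutch A the highest in the former and the lowest, at 14.2 RPKM, in the latter. By level per coding length, the 4 lay between the 42.1 and 68.4 percentiles of genes with reads in poly(A)+ eggs and between the 48.6 and 74.3 percentiles in rRNA-depleted eggs. The rRNA-depleted egg libraries order them as HyS0044.85, HyS0020.263, HyS0073.69 and HyS0018.150, and in that order HyS0020.263 and HyS0073.69 overlap while the other neighbours do not, although the lowest HyS0073.69 library (35.2 RPKM) is close to the highest of HyS0018.150 (34.6 RPKM).

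The difference between the library types in the egg was tested in 1 fit over 43 libraries. HyS0020.263 was lower in poly(A)+ than in rRNA-depleted egg libraries by a log2 difference of -1.66 ± 0.15 (SE, n = 3 and 3), with an adjusted p of 4.6e-09 in edgeR, and was lower in 3 of 3 paired samples. HyS0018.150 followed at -0.78 ± 0.20, with an adjusted p of 0.0047 in edgeR, but without the rRNA-depleted egg library of clutch A the difference was -0.53 and its adjusted p 0.066. HyS0044.85 (-0.32 ± 0.13) and HyS0073.69 (-0.34 ± 0.19) did not pass, with adjusted p of 0.063 and 0.24 in edgeR. Thus 2 of 4 genes were called lower in poly(A)+ eggs, against 14.2% of all 19461 genes tested. Both kinds of egg library came from the same 3 samples, and with the sample behind each pair as a block 4 of 4 were called lower, HyS0044.85 at an adjusted p of 0.00088 and HyS0073.69 at 0.00064 in edgeR. The 14.2% belongs to the fit without that block. The share of all genes called with it is not given, so nothing is read from the count of 4.

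After fertilization each of the 4 lost its poly(A)+ signal on its own schedule. The fall in poly(A)+ libraries is part of how the study found these genes, so these values are a description. HyS0020.263 fell first, from a mean of 12.0 ± 1.83 RPKM in the egg (SD, n = 3) and 12.7 RPKM at 30 mpf to 4.56 RPKM at 1 hpf and 2.15 and 2.19 RPKM in the 2 libraries at 2 hpf, a log2 fold change of -2.47 ± 0.23 (SE) from the egg. It then stayed between 2.10 and 3.81 RPKM through 5 hpf and was at 4.74 and 4.88 RPKM at 7 hpf. HyS0073.69 went from 27.7 ± 4.21 RPKM (SD, n = 3) to 15.1 RPKM at 1 hpf and 11.3 and 11.9 RPKM at 2 hpf. It was at 13.6 and 14.9 RPKM at 3 hpf and 15.0 and 17.5 RPKM at 4 hpf, above both libraries at 2 hpf, and ended at 7.68 and 8.60 RPKM at 7 hpf. HyS0044.85 declined in small steps, from 41.5 ± 4.15 RPKM (SD, n = 3) through 23.8 and 25.5 RPKM at 2 hpf and 14.8 and 15.1 RPKM at 4 hpf to 6.27 and 8.13 RPKM at 7 hpf. HyS0018.150 was not below the egg at any stage through 5 hpf, at 14.9 ± 1.09 RPKM in the egg (SD, n = 3), 19.5 and 24.2 RPKM at 3 hpf and 20.0 RPKM at 5 hpf, and then dropped to 10.7 RPKM at 6 hpf and 7.21 and 7.28 RPKM at 7 hpf.

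**Figure D1:**
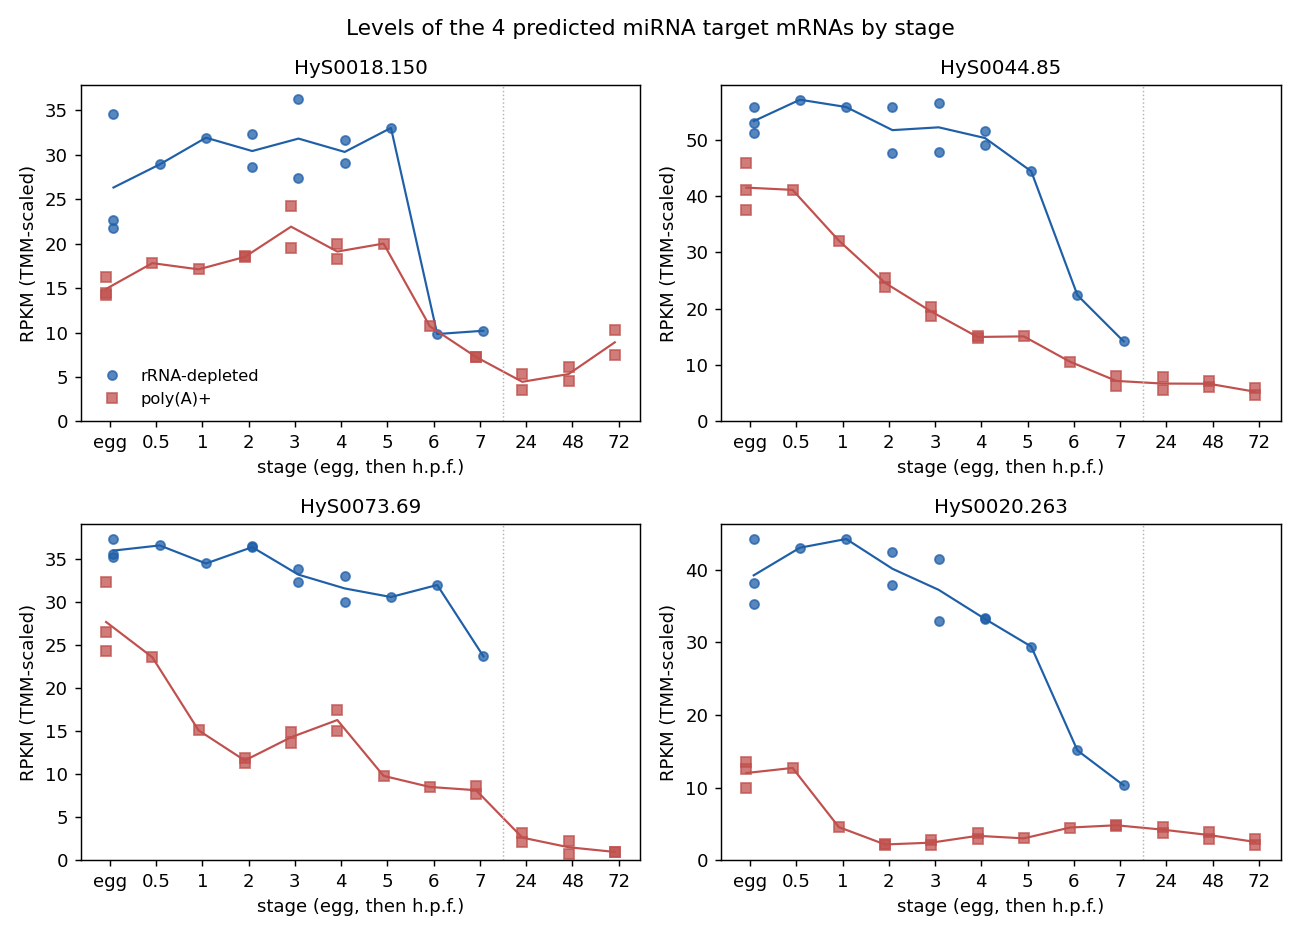
Levels of the 4 mRNAs in RPKM (linear axes from 0) by stage, egg to 72 hpf, for rRNA-depleted (blue circles) and poly(A)+ libraries (red squares). Each point is 1 library, lines join stage means, and the dotted line marks the step to larvae, which have poly(A)+ libraries only; for HyS0020.263 poly(A)+ levels are near their lowest at 2 hpf while rRNA-depleted levels are still at 37.9 and 42.4 RPKM.

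By a definition modelled on the study's (a called decrease from the egg of 2-fold or more in poly(A)+ libraries at some stage from 2 to 7 hpf, with no step between stages that rose over 1.5-fold), 2030 genes were counted as cleared and all 4 were among them. HyS0020.263 and HyS0073.69 first met the 2-fold limit at 2 hpf, HyS0044.85 at 3 hpf and HyS0018.150 at 7 hpf. The last was just inside that limit at 7 hpf, with a log2 fold change of -1.04 ± 0.24 (SE). Called lower in poly(A)+ libraries were 1 of 4 at 1 hpf (0.291% of all genes tested), 3 of 4 at 2 hpf (5.20%) and 4 of 4 at 7 hpf (19.9%), and nothing is read from these counts. The call at 1 hpf is that of HyS0020.263 at an adjusted p of 0.045 in edgeR, which became 0.14 with clutch as a block and between 0.050 and 0.16 without 1 egg library. At 2 hpf HyS0073.69 missed the threshold without clutch A (0.081) or C (0.053) of that stage and HyS0044.85 without clutch C (0.088). Between 4 and 7 hpf the poly(A)+ levels of HyS0018.150, HyS0044.85 and HyS0073.69 fell by 1.40, 1.07 and 0.99 on the log2 scale, all called (15.7% of all genes called lower), while that of HyS0020.263 had a log2 fold change of 0.52 ± 0.24 (SE) that missed the threshold. With clutch as a block the adjusted p was 0.060 for HyS0018.150 and 0.62 for HyS0073.69 in edgeR, and HyS0073.69 also missed the threshold without clutch C at 4 hpf (0.079), clutch B at 7 hpf (0.084) or clutch D at 7 hpf (0.056). The difference for HyS0020.263 was called by DESeq2, at 0.66 with an adjusted p of 0.016.

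The rRNA-depleted libraries were not used to define clearance. From 2 to 5 hpf HyS0044.85, HyS0073.69 and HyS0020.263 were nearer their egg level in them than in poly(A)+ libraries. In the 1 rRNA-depleted library at 5 hpf they were at 83.3%, 84.9% and 75.0% of the egg mean. For HyS0018.150 no stage mean through 5 hpf was below the egg mean in either library type. HyS0020.263, whose poly(A)+ level had fallen to 2.17 RPKM at 2 hpf, was at 42.4 and 37.9 RPKM there in rRNA-depleted libraries, inside the range of the egg libraries. HyS0073.69 was at 36.4 and 36.5 RPKM and HyS0044.85 at 55.8 and 47.6 RPKM at the same stage. HyS0018.150 was at 32.3 and 28.6 RPKM at 2 hpf and at 33.0 RPKM at 5 hpf. None of the 4 passed the test against the egg at any stage from 30 mpf to 5 hpf in edgeR. The log2 fold changes at 2 hpf lay between -0.04 and 0.21, with 95% intervals of -0.24 to 0.30 for HyS0020.263, -0.15 to 0.18 for HyS0073.69, -0.26 to 0.17 for HyS0044.85 and -0.29 to 0.70 for HyS0018.150. Of all 15944 genes tested, 0% were called lower at 30 mpf, at 1 hpf and at 2 hpf, 0.0314% at 3 hpf, 0.508% at 4 hpf and 1.71% at 5 hpf, so the background of called genes was itself near 0. At an unadjusted p under 0.05 in edgeR, 1 of the 4 was lower at 4 hpf (HyS0073.69) and 2 at 5 hpf (HyS0073.69 and HyS0020.263), and 0 were at each earlier stage. The share of all genes at that unadjusted cut is not given, so nothing is read from these counts. DESeq2 called HyS0073.69 lower at 4 hpf, with a log2 fold change of -0.22 and an adjusted p of 0.023, and 0 of 4 at the other stages up to 5 hpf. From 4 hpf on the scale matters in these libraries, since TPM, which divides by all length-scaled reads of a library, relative to the egg was lower than TMM-scaled RPKM by 0.36 at 4 hpf and 0.39 at 5 hpf on the log2 scale, against 0.02 at 2 hpf.

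At 6 and 7 hpf the rRNA-depleted levels were lower. HyS0018.150 went from 33.0 RPKM at 5 hpf to 9.83 RPKM at 6 hpf and 10.2 RPKM at 7 hpf, the steepest single step of the 4. HyS0044.85 went from 44.4 to 22.4 and 14.2 RPKM, and HyS0020.263 from 29.4 to 15.1 and 10.3 RPKM over the same 3 libraries of clutch B. HyS0073.69 was at 30.6, 32.0 and 23.7 RPKM, so it was still near its earlier level at 6 hpf. Against the egg, 3 of 4 genes were called lower at 6 hpf (13.5% of all genes) and 4 of 4 at 7 hpf (21.0%). The log2 fold changes at 7 hpf were -1.37 ± 0.36 for HyS0018.150, -1.91 ± 0.15 for HyS0044.85, -0.61 ± 0.10 for HyS0073.69 and -1.93 ± 0.19 for HyS0020.263 (SE, n = 1 and 3), with adjusted p of 0.0097, 3.2e-06, 0.00073 and 1.9e-05 in edgeR. In terms of level, 38.7%, 26.6%, 65.7% and 26.2% of the egg mean were left. Over all genes tested the median log2 fold change was 0, and over the 2030 cleared genes it was -1.11, with quartiles of -1.56 and -0.70. HyS0044.85 and HyS0020.263 thus fell more than most cleared genes (12.8 and 12.1 percentiles), HyS0018.150 lay at the 33.3 percentile, and HyS0073.69 fell less than most (79.4 percentile).

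The rRNA-depleted libraries at 5, 6 and 7 hpf were all of clutch B, which has no egg library, so stage and clutch cannot be told apart there. The DMSO embryos at 7 hpf, from clutches D and G, were measured too. The study compared Triptolide with DMSO in singling out these genes, so the DMSO levels are a description and not an independent check. Against the egg they had log2 fold changes of -1.14 ± 0.25, -2.01 ± 0.11, -0.50 ± 0.08 and -2.03 ± 0.14 (SE, n = 2 and 3) for HyS0018.150, HyS0044.85, HyS0073.69 and HyS0020.263, and 4 of 4 were called lower (24.2% of all genes). DMSO was also compared with untreated embryos at 7 hpf. In rRNA-depleted libraries the log2 difference was 0.23 for HyS0018.150 (95% interval -0.59 to 1.06), -0.10 for HyS0044.85 (-0.42 to 0.23), 0.11 for HyS0073.69 (-0.13 to 0.34) and -0.09 for HyS0020.263 (-0.53 to 0.34). In poly(A)+ libraries the differences were -0.28, -0.28, 0.10 and -0.35 in the same order. Of the 4 genes, 0 were called in edgeR in either type, 0 were at an unadjusted p under 0.05 and 0 were called by DESeq2. Over all genes 0.00528% were called higher and 0.0158% lower in poly(A)+ libraries, and 0.00627% higher and 0% lower in rRNA-depleted libraries. From 4 to 7 hpf 4 of 4 genes were called lower in rRNA-depleted libraries (18.8% of all genes). The call of HyS0073.69, at -0.41 ± 0.11, was the least firm, since its log2 fold change was -0.21 with RLE size factors (DESeq2's scaling) at an adjusted p of 0.15 in edgeR, -0.34 without the library of clutch C at 4 hpf at 0.054, and -0.36 with only the compared groups fitted at 0.25. DESeq2 gave it an adjusted p of 0.088.

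Samples up to 7 hpf were split between the preparations, so the poly(A)+ signal can be set against the rRNA-depleted signal of the same sample in 18 pairs. The untreated 7 hpf sample of clutch D has a poly(A)+ library only, so the untreated ratio at 7 hpf is that of clutch B alone. For HyS0020.263 the log2 ratio of poly(A)+ to rRNA-depleted CPM (counts scaled to library total) was -1.73, -1.37 and -1.91 in the egg samples of clutches A, C and D and -1.62 at 30 mpf. It was -3.19 at 1 hpf, -4.17 and -4.08 at 2 hpf, -4.18 and -3.53 at 3 hpf, -3.02 and -3.46 at 4 hpf and -3.07 at 5 hpf. It then came back to -1.61 at 6 hpf and -1.03 at 7 hpf, a little above every egg sample. At 7 hpf the share of the egg mean left was 40.1% by poly(A)+ selection (clutches B and D) and 26.2% by rRNA depletion (clutch B alone). These shares are not paired, and each was scaled within its own library type.

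The other 3 took courses of their own in this ratio, and in untreated embryos HyS0018.150 did not fall below its egg range. For HyS0044.85 it went from -0.49, -0.14 and -0.33 in the egg samples to -1.70 and -1.64 at 4 hpf and was -0.72 at 7 hpf. For HyS0073.69 it went from -0.35, -0.10 and -0.59 in the egg samples to -1.56 and -1.58 at 2 hpf. It was -0.89 and -0.87 at 4 hpf and then lay at -1.42, -1.77 and -1.54 at 5, 6 and 7 hpf, below every egg sample. For HyS0018.150 it was between -0.81 and -0.44 in each sample from 30 mpf to 5 hpf, inside the egg range of -1.21 to -0.46 but for 1 value at 3 hpf just above it, and it was 0.26 in the single pair at 6 hpf.

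**Figure D2:**
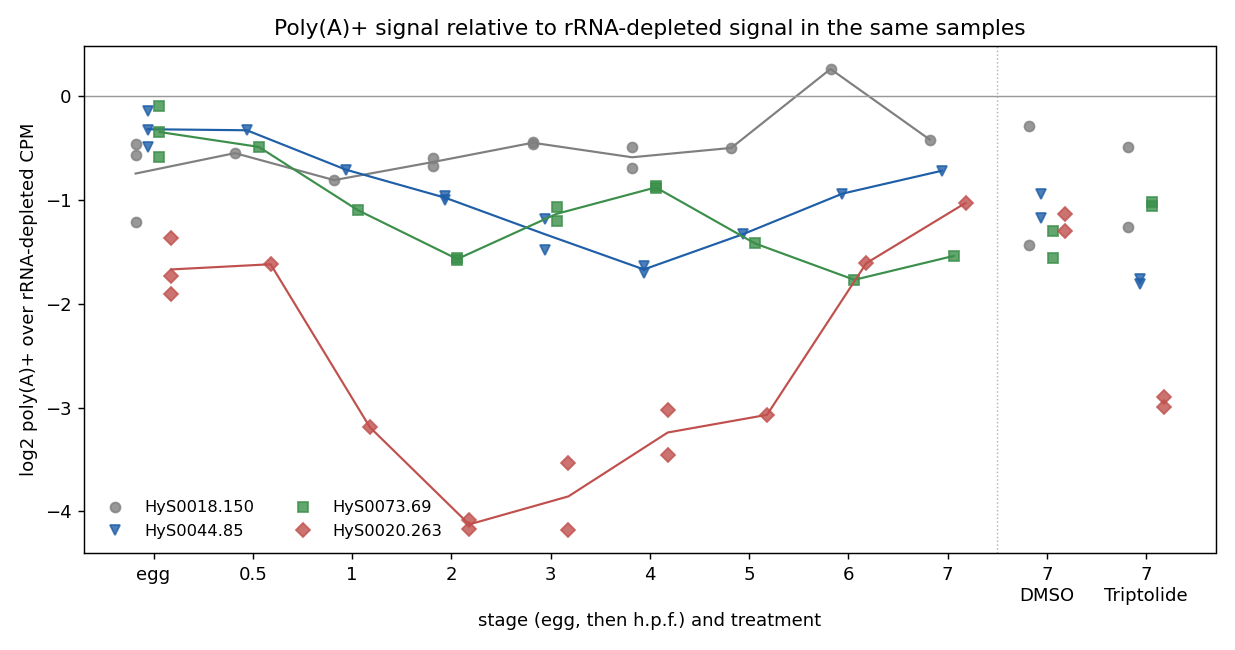
Log2 ratio of poly(A)+ to rRNA-depleted CPM in the same sample, by stage and for DMSO and Triptolide embryos at 7 hpf. Each point is 1 sample with both libraries, and lines join stage means of untreated samples; HyS0020.263 (red diamonds) averages -4.12 at 2 hpf, is at -1.03 at 7 hpf, and stays near -2.95 with Triptolide.

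Whether the change from the egg differed between library types was tested as an interaction over the same 43 libraries. The poly(A)+ fall that enters it is part of how the study found these genes, so its values and p-values are a description. For HyS0020.263 the change in poly(A)+ minus that in rRNA-depleted libraries was -2.46 ± 0.25 at 2 hpf, -2.20 ± 0.25 at 3 hpf, -1.55 ± 0.24 at 4 hpf and -1.40 ± 0.37 at 5 hpf on the log2 scale (SE), with adjusted p of 3.0e-07, 5.9e-07, 5.9e-05 and 0.021 in edgeR. At 6 hpf the difference was 0.05 (95% interval -0.65 to 0.76) and at 7 hpf 0.70 (0.08 to 1.31), neither of them called. For HyS0044.85 it was called at 3, 4 and 5 hpf, at -1.02 ± 0.20, -1.35 ± 0.20 and -1.01 ± 0.27 (SE). For HyS0073.69 it was called at 2 hpf, at -1.24 ± 0.31 (SE) and an adjusted p of 0.016 in edgeR, a call that was lost without 1 poly(A)+ egg library (clutch C, adjusted p of 0.052), either poly(A)+ library at 2 hpf (0.082 without A and 0.068 without C) or the rRNA-depleted library of clutch C at that stage (0.057). HyS0018.150 was not called at any stage, with differences between 0.15 and 1.03. In all, 2 of 4 genes were called relatively lower in poly(A)+ libraries at each of 2, 3, 4 and 5 hpf, beside 3.46%, 4.60%, 5.23% and 3.03% of all genes. Nothing is read from these counts. At 6 and 7 hpf 0 of 4 were, against 1.12% and 1.61%. There HyS0073.69 and HyS0044.85 were lower at an unadjusted p under 0.05 at both stages, as HyS0018.150 was relatively higher at 6 hpf and HyS0020.263 at 7 hpf, and DESeq2 called HyS0073.69 lower at both. How many of all genes pass at that unadjusted cut is not given, so nothing is read from it. With the sample behind each pair of libraries as a block, HyS0073.69 was called lower at every stage from 2 to 7 hpf, at 7 hpf by -1.20 with an adjusted p of 4.7e-05 in edgeR, and HyS0044.85 also at 2 hpf (0.00023) and 6 hpf (0.025).

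Triptolide was used in the study to ask whether clearance needs transcription from the embryo's own genome. HyS0018.150, HyS0044.85 and HyS0073.69 were singled out by the study because they were higher with Triptolide, and HyS0020.263 was named beside them as weakly so, so the comparison of Triptolide with DMSO is a description for all 4. In rRNA-depleted libraries HyS0018.150 was at 11.9 and 17.8 CPM with DMSO (clutches D and G) and at 32.2 and 25.4 CPM with Triptolide. HyS0044.85 was at 13.7 and 12.9 RPKM with DMSO and 24.2 and 26.2 RPKM with Triptolide. HyS0073.69 was at 26.2 and 24.8 RPKM with DMSO and 34.9 and 33.5 RPKM with Triptolide. HyS0020.263 was at 9.83 and 9.40 RPKM with DMSO and 13.6 and 15.7 RPKM with Triptolide. For each gene both Triptolide libraries lay above both DMSO libraries. The log2 fold changes were 0.94 ± 0.27, 0.93 ± 0.11, 0.43 ± 0.08 and 0.61 ± 0.15 (SE, n = 2 and 2) in that order. All 4 were called higher, beside 17.9% of all genes and 58.7% of the 2030 cleared genes, and nothing is read from that count.

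Against the cleared genes, these log2 fold changes were spread through the distribution. They lay at the 83.9, 82.7, 33.4 and 52.0 percentiles of the cleared genes for HyS0018.150, HyS0044.85, HyS0073.69 and HyS0020.263, and the median of the cleared genes was 0.59 with quartiles of 0.34 and 0.84. The median over the 4 was 0.77, and over all genes tested 0.08. RLE size factors shifted the median of all genes by -0.20 in this comparison, and then only HyS0044.85 was called, with HyS0018.150 at 0.73, HyS0073.69 at 0.22 and HyS0020.263 at 0.40. DESeq2 called 3 of 4, with HyS0020.263 at an adjusted p of 0.062. Leaving out a library of clutch D took HyS0018.150 to between 0.69 and 0.76, and a library of clutch G took HyS0020.263 to between 0.50 and 0.57, none of them called.

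How far Triptolide embryos were from the egg differed between the genes in rRNA-depleted libraries. HyS0018.150 was at 87.3% of the egg mean and HyS0073.69 at 94.9%, with log2 fold changes of -0.20 (95% interval -0.71 to 0.31) and -0.07 (-0.24 to 0.09), neither of them called. HyS0044.85 was at 47.3% and HyS0020.263 at 37.3%, with log2 fold changes of -1.08 ± 0.10 and -1.42 ± 0.13 (SE, n = 2 and 3), and both were called lower than the egg with adjusted p of 1.9e-05 and 1.5e-05 in edgeR. Called lower than the egg with Triptolide were thus 2 of 4, beside 11.9% of all genes, and nothing is read from that count. Their DMSO levels were 24.9% and 24.5% of the egg mean, so both Triptolide values lay between DMSO and egg.

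**Figure D3:**
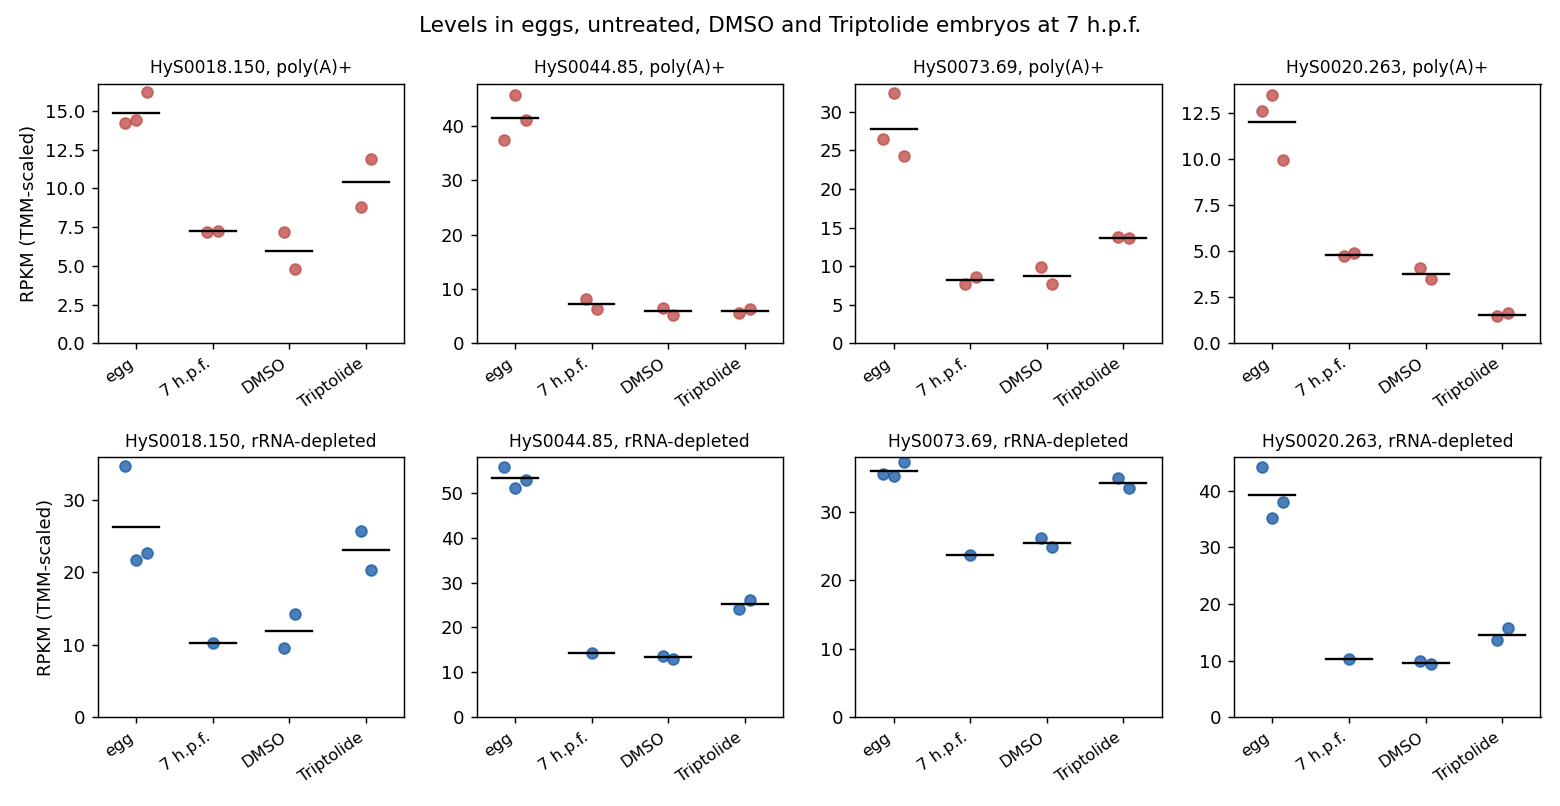
RPKM in the egg, in untreated embryos at 7 hpf and in DMSO and Triptolide embryos at 7 hpf, with poly(A)+ libraries in the upper row and rRNA-depleted libraries in the lower row (each point 1 library, bars the group means, axes from 0). With Triptolide, HyS0020.263 lies below DMSO in poly(A)+ libraries (1.49 and 1.63 RPKM against 4.10 and 3.47) and above it in rRNA-depleted libraries.

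In poly(A)+ libraries the 4 genes went different ways with Triptolide. HyS0018.150 was at 7.16 and 4.80 RPKM with DMSO and 8.78 and 11.9 RPKM with Triptolide, a log2 fold change of 0.80 ± 0.25 (SE, n = 2 and 2). HyS0073.69 was at 9.82 and 7.63 RPKM with DMSO and 13.8 and 13.6 RPKM with Triptolide, or 0.65 ± 0.28, which was not called (adjusted p of 0.11 in edgeR). HyS0044.85 was at 6.55 and 5.20 RPKM with DMSO and 5.67 and 6.38 RPKM with Triptolide, so the libraries overlapped, and the log2 fold change was 0.04 with a 95% interval of -0.35 to 0.43. HyS0020.263 was at 4.10 and 3.47 RPKM with DMSO and at 1.49 and 1.63 RPKM with Triptolide, a log2 fold change of -1.28 ± 0.25 (SE) and an adjusted p of 0.00087 in edgeR. Called higher was 1 of 4 (5.04% of all genes) and called lower 1 of 4 (18.9%). The call of HyS0018.150, at an adjusted p of 0.026 in edgeR, was lost with clutch as a block (0.056) and without either library of clutch G (log2 fold changes of 0.53 and 0.56). Among the 2030 cleared genes, of which 443 (21.8%) were called higher and 328 lower, the 4 lay at the 87.6, 40.5, 77.8 and 5.0 percentiles for HyS0018.150, HyS0044.85, HyS0073.69 and HyS0020.263. Most cleared genes (1453) were first called at 5 to 7 hpf, and 96 of these were called lower. HyS0020.263 was among the 577 first called at 2 to 4 hpf. For mRNAs cleared that early the study reports a trend to stronger deadenylation with Triptolide.

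The Triptolide effect in poly(A)+ minus that in rRNA-depleted libraries was -1.73 ± 0.29 on the log2 scale (SE) for HyS0020.263, with an adjusted p of 0.00047 in edgeR, the sole call among the 4 (2.82% of all genes called relatively lower). Its ratio of poly(A)+ to rRNA-depleted signal was -2.90 and -2.99 in the Triptolide samples and -1.14 and -1.30 in the DMSO samples, so with Triptolide it lay just above the untreated samples at 4 and 5 hpf (-3.46 to -3.02) and below every DMSO and egg sample. For HyS0044.85 the difference was -0.73 ± 0.23 (SE) with an adjusted p of 0.092 in edgeR, which became 0.0020 with the sample as a block and 0.030 in DESeq2. Its ratio was -1.81 and -1.76 with Triptolide and -0.94 and -1.17 with DMSO. For HyS0073.69 the difference was 0.38 (95% interval -0.32 to 1.08) and for HyS0018.150 it was 0.01 (-0.73 to 0.75), and neither was called. For HyS0018.150 the ratios in DMSO were -0.29 in clutch D and -1.43 in clutch G, and in Triptolide -1.26 and -0.49, so the samples of 1 treatment differed as widely as the treatments.

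**Figure D4:**
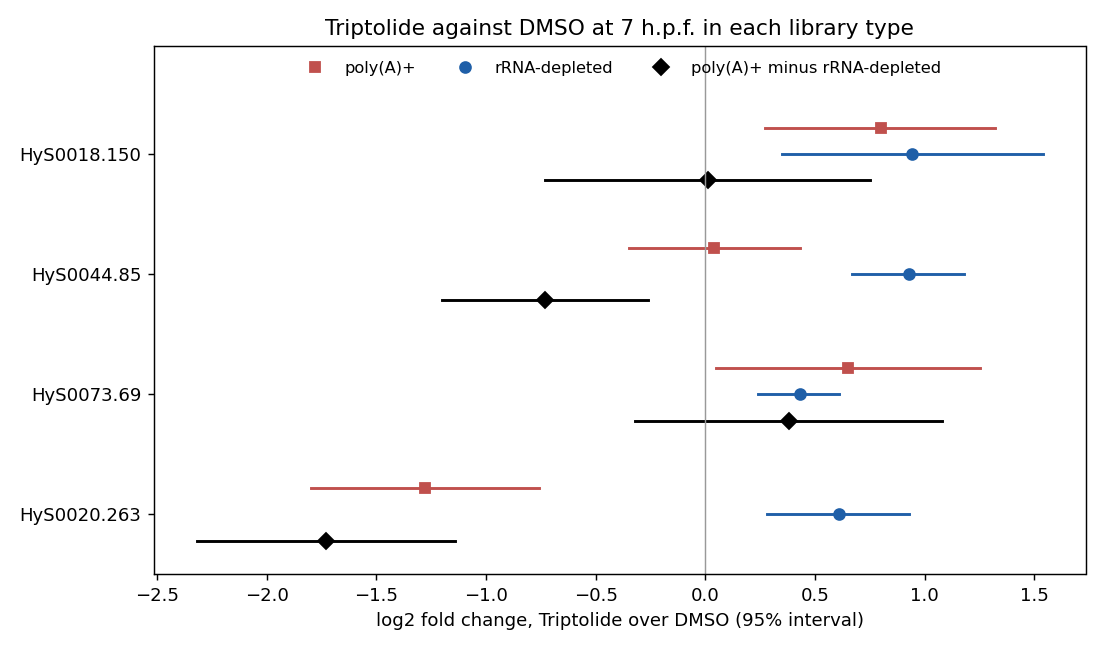
Log2 fold change of Triptolide over DMSO at 7 hpf with 95% intervals for each gene in poly(A)+ libraries (red squares), in rRNA-depleted libraries (blue circles), and the poly(A)+ effect minus the rRNA-depleted effect (black diamonds). The difference is -1.73 for HyS0020.263 and near 0 (0.01) for HyS0018.150.

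**Figure D5:**
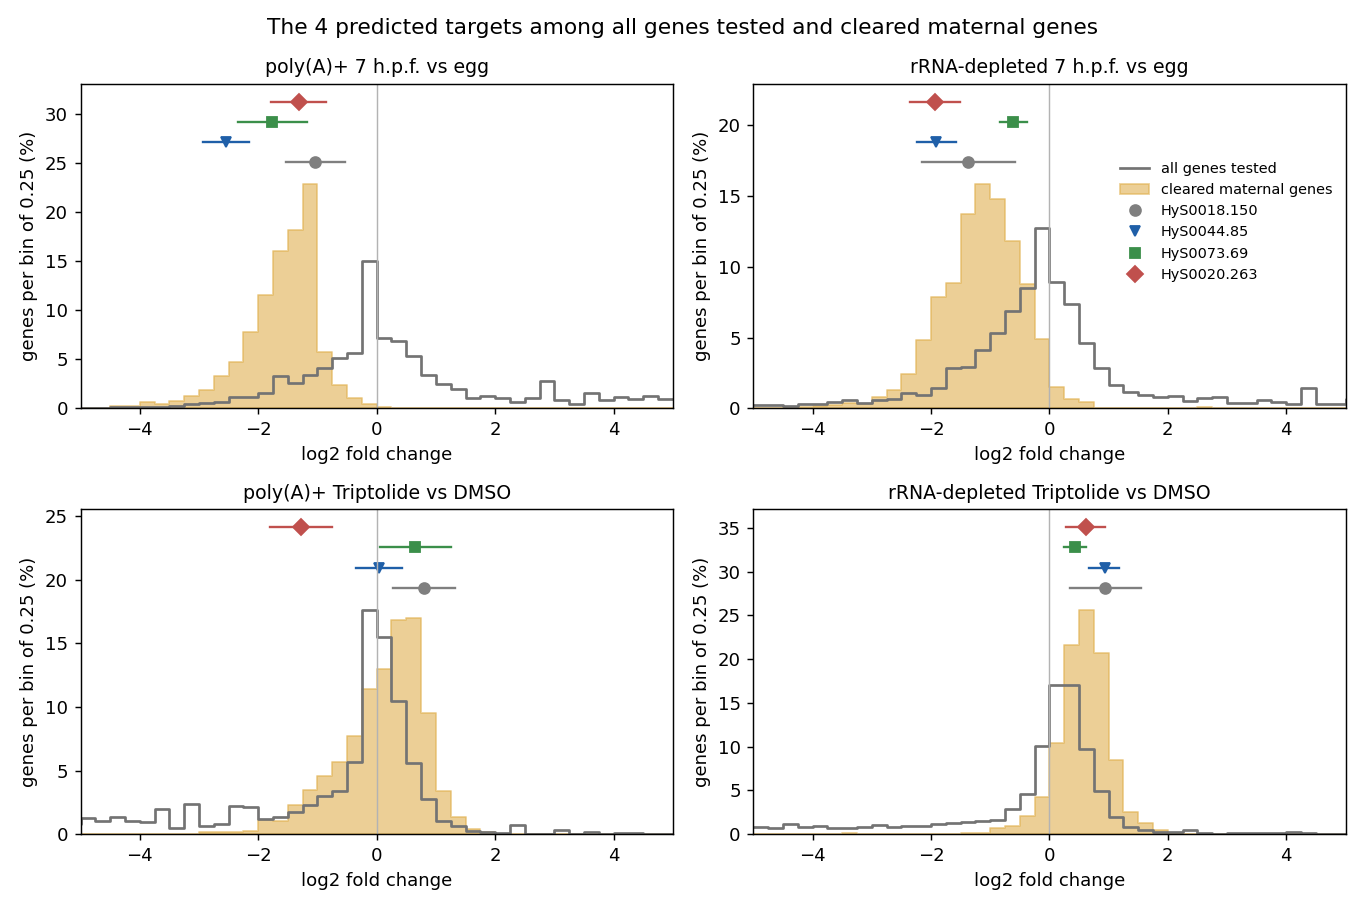
Log2 fold changes of the 4 genes (markers with 95% intervals, height arbitrary) above the distribution over all genes tested (grey line) and over the 2030 cleared genes (shaded), in percent of genes per bin of 0.25, for 7 hpf against egg and Triptolide against DMSO in each library type. Values beyond the drawn range of 5 on either side are not shown; with Triptolide the 4 lie inside the bulk of the cleared genes in rRNA-depleted libraries, and HyS0020.263 lies at the 5.0 percentile of all cleared genes in poly(A)+ libraries. Of these cleared genes 577, HyS0020.263 among them, were first called at 2 to 4 hpf and 1453 later.

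Larvae, which had poly(A)+ libraries only and were not used to choose the genes, separated the 4 again. HyS0073.69 went on falling, to 3.14 and 2.12 RPKM at 24 hpf, 0.746 and 2.28 RPKM at 48 hpf and 1.01 and 0.925 RPKM at 72 hpf, which is 3.48% of the egg mean. Its log2 fold changes from 7 hpf were -1.63 ± 0.30, -2.40 ± 0.32 and -3.08 ± 0.34 (SE, n = 2 and 2), with adjusted p of 0.00016, 3.5e-06 and 3.6e-07 in edgeR. HyS0044.85 was at 5.62 and 7.84 RPKM at 24 hpf and 5.89 and 4.67 RPKM at 72 hpf, and was not called at any larval stage, but whether it was called at 72 hpf depended on the processing. Its log2 fold change from 7 to 72 hpf, -0.44 at an adjusted p of 0.063 in edgeR, became -0.77 without clutch E at 72 hpf (0.011), -0.63 without clutch D at 7 hpf (0.034), -0.64 with edgeR's filterByExpr (0.0088), -0.59 with no filter on low counts (0.019) and -0.94 with scaling by library size only (0.0014). With library size only it was also called at 48 hpf (-0.57, adjusted p of 0.034 in edgeR). HyS0020.263 was at 4.62 and 3.79 RPKM at 24 hpf and 2.89 and 2.15 RPKM at 72 hpf, when it was called lower than at 7 hpf (-0.94 ± 0.25 SE, adjusted p of 0.0037 in edgeR). HyS0018.150 was at 5.34 and 3.58 RPKM at 24 hpf, called lower than at 7 hpf (-0.70 ± 0.27 SE, adjusted p of 0.035 in edgeR), and at 7.51 and 10.3 RPKM at 72 hpf, above both libraries at 7 hpf but not called (0.30, 95% interval -0.25 to 0.85). Its call at 24 hpf was lost without the library of clutch F (-0.44) and without clutch D at 7 hpf (-0.69). Against 7 hpf, 2 of 4 genes were called lower at 24 hpf (22.4% of all genes), 1 at 48 hpf (23.5%) and 2 at 72 hpf (24.4%). The scale matters here, since the median of all genes was 0.33, 0.38 and 0.41 against 7 hpf under TMM, and levels as TPM would be lower by a further 0.53 to 0.99 on the log2 scale relative to the egg. All 4 were called lower than the egg at 72 hpf, beside 27.9% of all genes and 73.4% of the 2030 cleared genes, and nothing is read from that count. The log2 fold changes were -0.74, -2.98, -4.85 and -2.26 for HyS0018.150, HyS0044.85, HyS0073.69 and HyS0020.263.

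Over 25 group means of log2 CPM, centred within each library type, the profiles of HyS0018.150 and HyS0044.85 were the most alike of the 6 pairs (Pearson r = 0.82), and those of HyS0073.69 and HyS0020.263 the least (r = 0.33). These means share libraries and normalization, so the values are descriptions. They include the 2 hpf, DMSO and Triptolide groups, so alike fold changes there are partly built into the choice of the most similar genes. Many other genes have similar profiles. Of 10843 genes with at least 1 CPM in the egg in both types, 130 had r over 0.9 with HyS0018.150, 310 with HyS0044.85, 699 with HyS0073.69 and 22 with HyS0020.263. The 3 most like HyS0020.263 were HyS0137.13 (r = 0.965), HyS0032.65 (0.954) and HyS0004.303 (0.941), all lower than the egg in poly(A)+ libraries at 2 hpf (log2 fold changes of -2.13, -2.10 and -1.50) and with Triptolide than with DMSO (-1.41, -0.79 and -0.73). The 3 most like HyS0018.150 were HyS0004.321 (0.972), HyS0051.60 (0.959) and HyS0014.100 (0.958), those most like HyS0044.85 were HyS0005.274 (0.980), HyS0043.84 (0.978) and HyS2037.1 (0.978), and those most like HyS0073.69 were HyS0082.24 (0.975), HyS0010.182 (0.973) and HyS0006.247 (0.973). In rRNA-depleted libraries with Triptolide, the log2 fold changes of the 3 genes most like each member ranged from 0.68 to 1.24 for HyS0018.150 (itself 0.94), from 0.51 to 0.90 for HyS0044.85 (0.93), from 0.25 to 0.66 for HyS0073.69 (0.43) and from -0.21 to 0.33 for HyS0020.263 (0.61). Called higher were 3, 2, 1 and 0 of them in that order.

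A further gene that the study names by identifier in connection with clearance is HyS0016.179, a homolog of Smaug, an RNA-binding protein that in Drosophila recruits deadenylases to maternal mRNAs. Its own mRNA had a log2 fold change from the egg at 4 hpf of -1.13 by poly(A)+ selection and -0.10 by rRNA depletion. With Triptolide against DMSO it was at -1.49 ± 0.22 (SE, n = 2 and 2) in poly(A)+ libraries, against 0.20 ± 0.10 in rRNA-depleted ones. The difference between library types in the Triptolide effect was -1.54 ± 0.27 (SE), with an adjusted p of 0.00078 in edgeR, beside -1.73 for HyS0020.263.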

How the data were processed

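RNA was measured in 45 samples, of which 43 were compared and 2 pilot libraries were not. The authors trimmed reads with Trim Galore 0.6.6 and cutadapt 1.15 and deposited expected counts estimated by kallisto 0.46.1 per protein-coding gene model, stranded, neither rounded nor normalized. Here counts were rounded, genes with at least 10 reads summed were kept, and edgeR 4.0.16 (R 4.3.3) quasi-likelihood F tests with TMM and Benjamini-Hochberg adjustment over all genes were fitted with 1 mean per group, separately for 25 poly(A)+ and 18 rRNA-depleted libraries, and over all 43 for differences between library types. Lone libraries were assumed to vary like the replicated groups. The deposited lengths, all multiples of 3, gave RPKM per coding length. The tests were tried on simulated data. Depth was 3107656 counts or more per library, and the read counts of each gene set the precision.

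The 4 genes and the lists were chosen with earlier results of these data known. The named genes are those 4, the 3 genes most like each by Pearson r over group means, and a gene the study names by identifier. The labels give letters without saying what they mark, and they are read here as collection groups. The log2 difference between clutches A and C correlated between stages at 0.49 to 0.79 in poly(A)+ and 0.60 to 0.85 in rRNA-depleted libraries. For D and G the difference correlated at -0.02 between DMSO and Triptolide in both types. For E and F it correlated at -0.41 to -0.01 between larval stages. The reading of the letters as collection groups thus has a positive correlation behind it for A and C only, and not for D and G or E and F. Of 20 replicate pairs, 0 were identical. Alternatives were DESeq2 1.42.0, RLE size factors or unscaled library totals in edgeR, 2 other filters, a fit of the compared groups alone, a block for clutch or for sample, and leaving out each library, which kept the dispersion trend of all libraries.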

Additional observations from a re-analysis of the deposited data

Results flagged for a closer look

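The change from the egg differed between library types, by the interaction test, in 8 cases. The poly(A)+ fall in that test is part of how the study found these genes, so the cases are a description. The change in poly(A)+ minus that in rRNA-depleted libraries was -2.46, -2.20, -1.55 and -1.40 on the log2 scale for HyS0020.263 at 2, 3, 4 and 5 hpf, it was -1.02, -1.35 and -1.01 for HyS0044.85 at 3, 4 and 5 hpf, and it was -1.24 for HyS0073.69 at 2 hpf. The Triptolide effect differed between library types for HyS0020.263, by -1.73.

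The 2 pilot libraries at 1 hpf entered no comparison. All 4 genes had reads in them above the limit that a count of 0 allows, which is 5.47 CPM in the unselected library of 548644 counts and 0.38 in the poly(A)+ library of 7902866 counts. In the unselected pilot HyS0018.150 was at 49.2 CPM, HyS0044.85 at 170, HyS0073.69 at 246 and HyS0020.263 at 89.3. In the poly(A)+ pilot they were at 25.2, 128, 154 and 18.5 CPM in the same order.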

How the results depend on the processing

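Of 1404 values of single genes under the alternatives, 1321 kept their side of the threshold, 37 lost the call and 46 gained one. Of the values called in either setting, 0 reversed direction. Changes of sign in values called in neither setting were not counted as reversals. The counts of the 4 genes called that moved by over 1.5 times were as follows, with smaller moves after them, and the cause was not tested. At 1 hpf in poly(A)+ libraries the count was 0 with library size only, with only the compared groups, with clutch as a block and without any 1 egg library (range 0 to 0), and without 1 library at 2 hpf it ranged from 1 to 3. In rRNA-depleted libraries it was 1 at 4 hpf by DESeq2 and 1 for Triptolide with RLE size factors. For poly(A)+ Triptolide, called higher, it was 2 with only the compared groups, 0 with clutch as a block and 0 to 1 without 1 library. For 7 against 4 hpf in poly(A)+ libraries it was 1 with clutch as a block. For 24 against 7 hpf it was 1 with RLE size factors and 1 to 2 without 1 library, and for 48 against 7 hpf 4 with library size only and 2 with filterByExpr or with no filter. Between library types in the egg it was 4 with only the compared groups or the sample as a block 3 with DESeq2 and 1 to 3 without 1 library. For the difference between library types it was 1 to 2 without 1 library at 2 hpf. At 6 hpf it was 2 with the sample as a block, 1 with RLE size factors, filterByExpr, no filter, DESeq2 or only the compared groups, and 0 to 1 without 1 library. At 7 hpf it was 1 with RLE size factors, filterByExpr, DESeq2, only the compared groups or the sample as a block, and for Triptolide 2 with DESeq2, only the compared groups or the sample as a block. Smaller moves were from 2 to 3 for 72 against 7 hpf (library size only, filterByExpr, no filter or without 1 library), from 4 to 3 for 7 against 4 hpf in rRNA-depleted libraries (RLE size factors, DESeq2, only the compared groups or without 1 library) and for rRNA-depleted Triptolide (DESeq2 or without any 1 library), from 3 to 2 for 7 against 4 hpf in poly(A)+ libraries without 1 library, and from 2 to 3 for the library type difference at 2, 3 and 5 hpf (DESeq2, only the compared groups or the sample as a block) and at 4 hpf (the sample as a block). The clutch and sample blocks changed no call other than those given here and in the report. Using a prior count of 0.5 named the same 3 most similar genes for each gene, and Spearman's rho shared 1, 1, 0 and 1 of them with Pearson's r.

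Stages with 1 library rest on the spread of the others, and the stages of clutch B hold as few as 29 reads of HyS0020.263.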
